A study of Mus musculus with 76 samples.

Results

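Synaptic adhesion molecules are the cell-surface proteins that hold the 2 sides of a synapse together and help to organise them. The rows of 36 genes for such proteins, in 12 families, were taken by name from the deposited count table, which holds 35825 gene symbols. All 36 were present and all 36 passed the filter on low counts, so no gene of the set is missing from the tests. They were measured in single neurons by Patch-seq, a method that sucks the RNA of a recorded cell into the recording pipette and sequences it.

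The neurons lay in the CA1 pyramidal layer of the dorsal hippocampus in mouse pups of postnatal day 4. All pups, controls included, carried Nkx2.1-Cre and the Ai14 tdTomato reporter, so every patched cell was chosen by a label that Cre switches on in the lineage of the medial ganglionic eminence (MGE). This is the embryonic source of parvalbumin and somatostatin interneurons. One genotype had wild-type gephyrin (WT) and the other had gephyrin with serines 268 and 270 changed to alanine (S268/270A, called Mut in the labels). Gephyrin anchors glycine and GABA-A receptors beneath inhibitory synapses. Described here are 62 cells: 28 of WT (9 from females, 19 from males) and 34 of Mut (19 from females, 15 from males). No animal or litter is named for any cell, so several cells may come from 1 pup, and each group counts as 1 sum of cells. In the text, a cell has a number within its group.

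Adhesion across the synaptic cleft works largely by binding between families. Neurexins and the LAR-type receptor phosphatases sit mainly on the axon side. Their binding partners on the dendrite side include neuroligins, LRRTM proteins, SLITRK proteins, IL1RAPL1 and the LRFN (SALM) proteins. Latrophilins bind FLRT proteins and teneurins, SynCAMs (Cadm genes) bind one another, contactins pair with contactin-associated proteins, and cadherins and NCAM-type molecules bind mostly like to like. In hippocampal interneurons these molecules are studied for how axons choose a target and how a new contact gains its receptors. A transcript does not tell on which side of a synapse its protein sits.

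Most cells held the leading markers of their label. Lhx6, a transcription factor of MGE interneurons, reached 10 CPM (counts scaled to a common library total) in 57 of the 62 cells, and Gad1, an enzyme of GABA synthesis, in 58. The other MGE markers were less broad. Over all 15 the median was 37 cells, with Sox6 in 25, Dlx5 in 24, Slc32a1 and Satb1 in 23, Nkx2-1 in 11 and Dlx6 in 8. Markers of other cells were present too. Of 17 pyramidal neuron markers, 16 reached 10 CPM in at least 1 cell, led by Cux2 in 55 cells and Neurod6 in 31, and Emx2 in none. Of 9 markers of interneurons from the caudal ganglionic eminence, 8 did so, led by Cck in 46 cells and Nr2f1 in 34, and Htr3a in none. Of the 11 astrocyte and radial glia markers, 10 did so, led by Fabp7 in 45 cells, with Hes5 in none, and their summed level ran from 4.42 to 8249 CPM (median 222). The 11 microglial markers summed to 0.922 to 7815 CPM (median 17.6). At 2000 CPM or more of astrocyte or microglial markers stood 12 cells, a limit chosen after the values were seen: 4 of WT (1 female, 3 male) and 8 of Mut (6 female, 2 male). The tests and the fold changes of named genes were also computed without these 12. A cell held 2946456 to 12070780 counts (median 6353179).

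A gene is called carried by a cell at 10 CPM or more. CPM is not divided by transcript length, so this limit is not the same transcript level for every gene. How far breadth follows transcript length was not tested. Such a limit was needed because small values were common: of 2232 values (36 genes in 62 cells), 11.1% were 0, 40.9% lay above 0 but under 10 CPM, 20% lay from 10 to 100 CPM and 28% were at 100 CPM or more.

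The breadth of the 36 genes ran from every cell to 2 cells. Ncam1, a neural cell adhesion molecule of the immunoglobulin type, was carried by all 62 cells, between 10.6 and 2156 CPM (median 758). The receptor phosphatase Ptprs and the latrophilin Adgrl1 followed with 58 cells each, then Nlgn1, Cadm1 and Cadm2 with 57 each. Ptprd was carried by 55 cells, Cntn1 by 54, and Nrxn3 and L1cam by 48 each. These 10 genes, at 48 cells or more, are 27.8% of the set, against 6.36% of the 16435 genes tested. At the other end 6 genes were carried by 10 cells or fewer: Cdh8 by 10, Slitrk1 by 9, Flrt3 by 8, Lrrtm3 by 7, Cdh9 by 6 and Lrfn2 by 2. That is 16.7% of the set, against 51.2% of the genes tested. Between these ends lay 20 genes, from Adgrl3 in 39 cells to Lrrtm4 in 12. The 36 genes were chosen with earlier results of these data known, so these shares describe the list and carry no test. In a list of 62 other adhesion genes, 4.84% were carried by 48 cells or more and 33.9% by 10 or fewer. Breadth of this kind is thus not shared by adhesion genes at large.

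**Figure D1:**
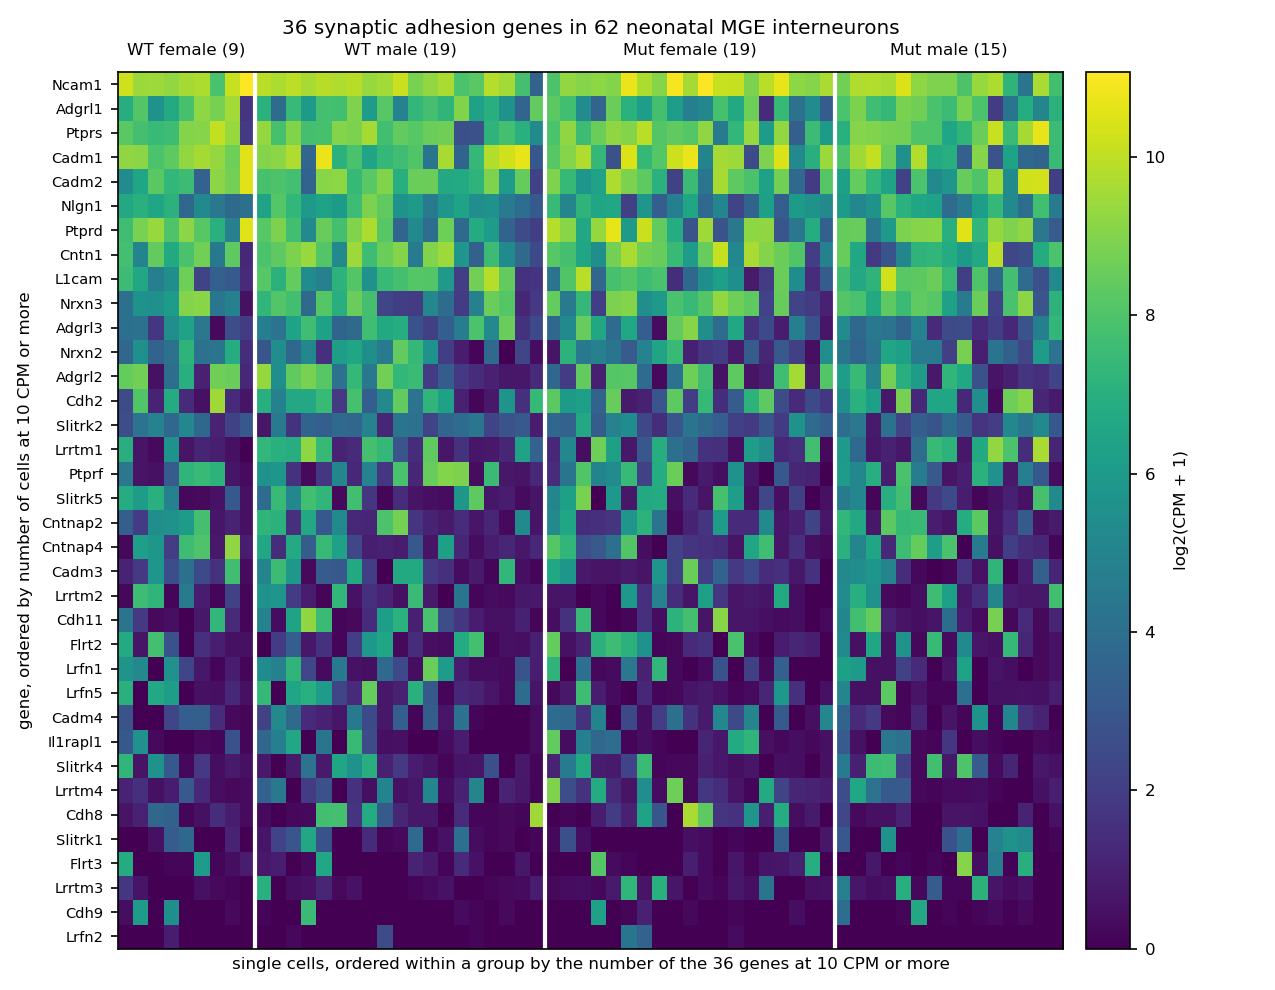
Expression of the 36 adhesion genes (rows, ordered by how many cells carry them) in 62 single cells (columns, by group), as log2(CPM + 1). Ncam1 is bright in nearly every column, whereas Lrfn2 at the bottom reaches 10 CPM in 2 cells.

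Genes of narrow breadth were not uniformly faint where they were carried. In the 10 cells that carried Cdh8, a classical cadherin, its median was 162 CPM (113 CPM without the 12 cells high in glial markers), and in the 18 cells with Flrt2 the median was 124 CPM. The median of Nlgn1 in its 57 cells was 60.8 CPM. Cadm4 was carried by 14 cells and never passed 51.1 CPM. Breadth and level are therefore given apart. CPM is not divided by transcript length, so these CPM values do not rank the genes by level.

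Levels of different genes can be set side by side only per transcript length, so the deposited TPM values, which divide by transcript length and by the library total, serve here. Ncam1 led with a median of 174 TPM and Cadm1 followed with 156 TPM, but each was above the other in 31 cells, so the order of this pair is not fixed. Next came Ptprs with 70.0 TPM, above Ptprd (59.0 TPM) in 44 cells. Ptprd and Cntn1 (45.4 TPM) again split the cells 31 to 31. L1cam stood at 44.4 TPM, Adgrl1 at 32.7, Nrxn3 at 30.8 and Cadm2 at 29.4, and within this run each gene was above the next in 29 to 37 of the 62 cells. The remaining 27 genes had medians of 11.3 TPM (Adgrl3) or less. At the low end, the medians of Lrfn2 and Cdh9 were 0.

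The sequences just upstream of 4 genes are shown to set broad beside narrow expression. The windows are the 250 bases before the RefSeq start (GRCm38.p6), printed 5′ to 3′ on the gene's strand, with every CG in capitals. Adgrl1 (chr8:83899848-83900097, plus strand) and Cadm2 (chr16:67620909-67621158, minus strand) were carried by 58 and 57 cells. Cdh8 (chr8:99416472-99416721, minus strand) and Cdh9 (chr15:16728665-16728914, plus strand) were carried by 10 and 6.
Adgrl1: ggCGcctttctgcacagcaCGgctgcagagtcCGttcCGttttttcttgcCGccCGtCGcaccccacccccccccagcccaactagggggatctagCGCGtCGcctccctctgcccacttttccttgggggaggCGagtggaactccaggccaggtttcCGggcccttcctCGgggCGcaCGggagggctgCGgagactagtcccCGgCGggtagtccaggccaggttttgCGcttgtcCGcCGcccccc
Cadm2: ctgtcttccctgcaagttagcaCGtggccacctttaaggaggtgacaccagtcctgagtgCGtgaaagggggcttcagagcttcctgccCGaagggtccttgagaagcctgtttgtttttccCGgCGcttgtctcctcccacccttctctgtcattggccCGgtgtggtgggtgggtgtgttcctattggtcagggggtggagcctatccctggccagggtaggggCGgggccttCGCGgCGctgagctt
Cdh8: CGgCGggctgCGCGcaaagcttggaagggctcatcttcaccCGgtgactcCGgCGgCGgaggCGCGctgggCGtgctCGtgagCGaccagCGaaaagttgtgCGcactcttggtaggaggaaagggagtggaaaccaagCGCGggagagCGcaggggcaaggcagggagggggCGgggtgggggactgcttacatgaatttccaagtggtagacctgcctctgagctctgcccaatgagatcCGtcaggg
Cdh9: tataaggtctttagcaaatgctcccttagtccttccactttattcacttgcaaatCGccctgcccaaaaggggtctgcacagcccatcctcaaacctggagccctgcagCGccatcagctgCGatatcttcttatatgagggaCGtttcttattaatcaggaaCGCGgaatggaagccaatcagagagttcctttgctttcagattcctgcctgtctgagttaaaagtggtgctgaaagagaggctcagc
They hold 21, 10, 20 and 6 CGs in that order, so the narrowly carried Cdh8 has nearly as many as the broadly carried Adgrl1. As many CGs or more occur in 16.3%, 37.8%, 17.9% and 50.4% of all 32851 windows of this length. RefSeq windows were at hand for 25 of the 36 genes, with a median of 10 CGs against 6 for all windows. Over the 7 genes with a window carried by 48 cells or more the median was 10 (2 to 21), and over the 5 carried by 10 or fewer it was 6 (5 to 20), so the ranges overlap. CG reads the same on both strands, and a count of CGs is a description of the letters.

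The set also holds very long genes. Its median span in GENCODE M21 was 158 kb, against 21.2 kb for 16332 tested genes with an annotation. Spans over 500 kb belonged to 8 of the 36 genes and to 215 of those 16332. The longest were Ptprd (2271 kb), Cntnap2 (2245 kb), Nrxn3 (1612 kb) and Il1rapl1 (1375 kb). Of these, Ptprd was carried by 55 cells and Il1rapl1 by 14.

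A single cell carried 5 to 30 of the 36 genes, with a median of 17 and a middle range of 14 to 20.8. Among females the median was 20 in WT (5 to 22) and 16 in Mut (9 to 23). Among males it was 18 in WT (6 to 26) and 17 in Mut (12 to 30), so all ranges overlapped widely. Of the 12 families, a cell had at least 1 gene from 4 to 12 (median 10). The richest cells were Mut male 6 with 30 genes, WT male 19 with 26 and WT male 3 with 25. Cells that carried more genes of any kind carried more adhesion genes: over the 62 cells Pearson's r with the number of all genes at 10 CPM was 0.78, given as a description, since both counts come from the same library. With the log10 of the cell's total count r was -0.02.

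The 6 cells with the fewest adhesion genes all had high astrocyte markers. WT female 7 carried 5 genes with 7207 CPM of those markers, WT male 16 carried 6 with 4767 CPM, and Mut female 2 and 6 carried 9 each with 5915 and 2714 CPM. WT male 20 carried 10 with 5427 CPM and Mut female 18 carried 11 with 8249 CPM. Other markers were also high in some of them. Red blood cell markers summed to 26898 CPM in Mut female 18 and 13445 in WT male 20 (median of all cells 383), and oligodendrocyte lineage markers to 1033 CPM in Mut female 6 (median 7.32). These cells also had few genes of any kind at 10 CPM, from 1499 to 3228 against a median of 4030 over all cells. The 12 cells at 2000 CPM or more of glial markers carried 5 to 22 adhesion genes (median 12), and the other 50 carried 12 to 30 (median 18). Over all 62 cells r between the number carried and the log2 of the astrocyte marker sum was -0.29. Nrxn3 shows the gap for 1 gene: 43 of the 50 cells carried it (median 177 CPM), but 5 of the 12 (median 3.49 CPM). Cadm1 shows no such gap, with 46 of 50 cells (median 305 CPM) and 11 of 12 (median 348 CPM). What part transcripts of other cells have in these counts was not tested.

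**Figure D2:**
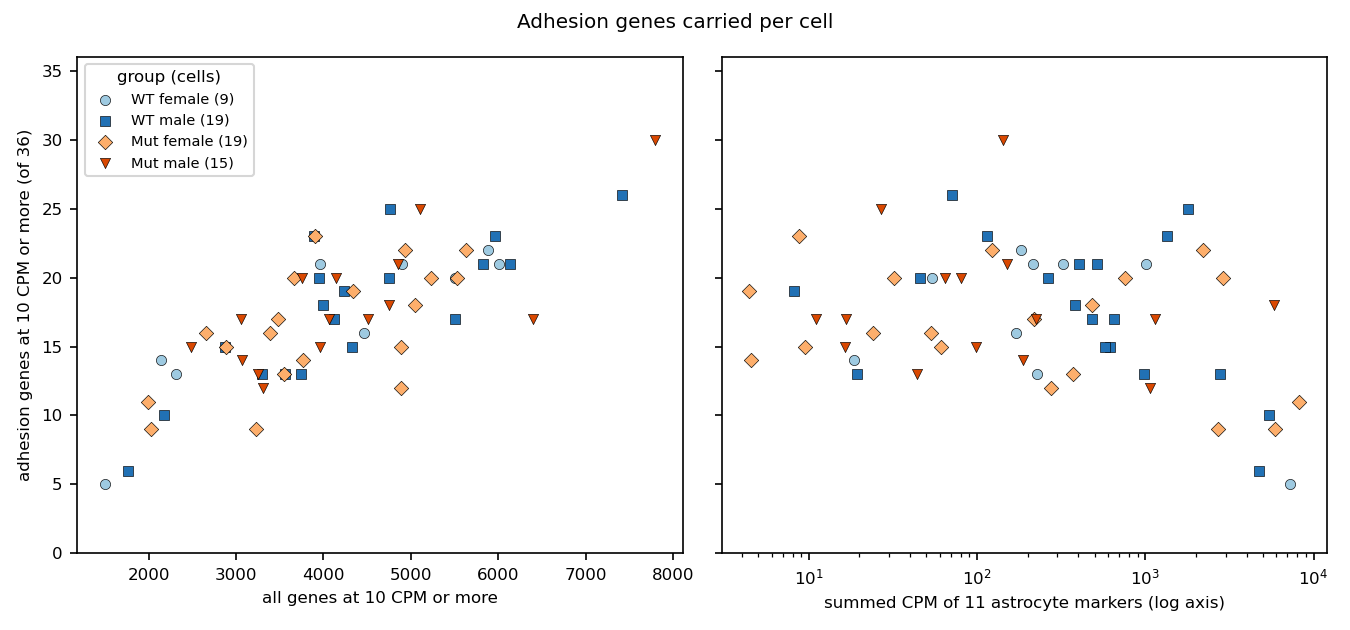
Number of the 36 adhesion genes at 10 CPM or more in each of 62 cells (points, by group) against the number of all genes at 10 CPM or more (left) and the summed CPM of 11 astrocyte markers on a log axis (right). The cells with 5 to 11 adhesion genes sit toward the low end on the left and at 2714 CPM or more on the right.

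Neurexins are presynaptic receptors that reach many partners. At least 1 of Nrxn2 and Nrxn3 was carried by 55 of the 62 cells: both by 31, Nrxn3 alone by 17 and Nrxn2 alone by 7. Nrxn3 was the stronger of the pair in 29 of the 55 cells by TPM but in 42 by CPM, so Nrxn3 led more cells on both scales, but by a margin that depends on the length scaling. A cell usually leaned to one of them, as the higher gene made up a median of 92.9% of the pair's TPM. In CPM, Nrxn3 ran from 0.401 to 616 (median 132) and Nrxn2 from 0 to 442 (median 17.2). In the annotation 15 of the 36 genes, Nrxn2, Nrxn3, Ptprd, Nlgn1 and all 3 latrophilins among them, share exon positions with antisense genes. Strand use in the counting is not stated, so reads of the 2 strands may not be separable for these 15.

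LAR-type receptor phosphatases, the other presynaptic group, were carried by every cell: 28 cells had all 3 genes, 24 had 2 and 10 had 1. Ptprs had the highest TPM of the family in 38 cells, Ptprd in 17 and Ptprf in 7. Ptprf was the narrow one, in 29 cells, and each of those 29 also carried Ptprd. Ptprd itself was in 55 of the 62 cells, and 26 had it without Ptprf. Ptprs ran from 2.67 to 1649 CPM (median 289), Ptprd from 3.14 to 1631 CPM (median 240) and Ptprf from 0 to 511 CPM (median 7.38). Over these 5 presynaptic genes a cell carried 1 to 5, with a median of 4.

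On the postsynaptic side, Nlgn1 (neuroligin 1, a neurexin partner known mainly from excitatory synapses) was broad and low, carried by 57 cells and at 3.32 to 477 CPM over all 62 (median 53.6). Together with Nrxn3 it was carried by 44 cells, and 1 cell carried neither. Since Nlgn1 was above 0 in every cell and its level went with a sum of olfactory receptor genes, described with Slitrk2, both counts carry a limit: how much of them is background was not tested. The 12 other postsynaptic genes were patchier. Over all 13 a cell carried 1 to 9, with a median of 4.

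LRRTM proteins are neurexin partners with leucine-rich repeats. No LRRTM gene was carried by 17 cells, exactly 1 by 29, 2 by 10, 3 by 5 and all 4 by 1. Lrrtm1 was in 30 cells, Lrrtm2 in 19, Lrrtm4 in 12 and Lrrtm3 in 7. In the 45 cells with any, the highest gene made up a median of 96.0% of the family's TPM, and it was Lrrtm1 in 25, Lrrtm2 in 10, Lrrtm4 in 6 and Lrrtm3 in 4. Lrrtm2, which lies antisense to Ctnna1, is among the 15 genes with shared antisense exon positions.

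SLITRK proteins bind the LAR-type phosphatases. Of the 4 genes, 17 cells carried none, 20 carried 1, 17 carried 2, 6 carried 3 and 2 carried all. Slitrk5 had the highest TPM of the family in 23 of the 45 cells with any, Slitrk2 in 10, Slitrk4 in 8 and Slitrk1 in 4. Slitrk2 differed from the other 3 in shape: it was above 0 in all 62 cells, at 0.57 to 103 CPM (median 9.82), so the limit of 10 CPM splits it into 31 cells and 31. Slitrk1, 4 and 5 had medians of 0.148, 0.729 and 2.45 CPM and highest values of 96.3, 262 and 461 CPM. Slitrk2 and Nlgn1 were also the 2 genes of the set that went most with the summed level of 1405 olfactory receptor genes, a family known from olfactory sensory neurons. Pearson's r over the 62 cells was 0.52 and 0.47 on the log2 scale, against a median of -0.05 over 8392 genes carried by 10 cells or more, of which 2.68% and 3.12% lay higher. These are descriptions within shared libraries, and whether part of the counts of these 2 genes is background was not tested. With both genes left out, the median number of adhesion genes per cell was 16.

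IL1RAPL1 and the LRFN proteins are further partners of the LAR-type phosphatases. None of the 4 genes was carried by 30 cells, 1 by 19, 2 by 10 and 3 by 3. Lrfn1 was in 17 cells, Lrfn5 in 15 and Il1rapl1 in 14. All 14 cells with Il1rapl1 also carried Ptprd, its receptor on the axon side, which 55 of the 62 cells carried. Lrfn2 was carried by 2 Mut female cells at 18.7 and 10.3 CPM. In WT it was carried by 0 of 28 cells, so a share as high as 10.7% is compatible with that count, by counting alone.

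Latrophilins are adhesion receptors coupled to G proteins. All 3 genes were carried by 29 cells, 2 by 17, 1 by 13 and none by 3. Adgrl1 had the highest TPM in 29 of 59 cells, Adgrl2 in 18 and Adgrl3 in 12. Each of the 39 cells with Adgrl3 also carried Adgrl1, as did 36 of the 37 with Adgrl2. Their FLRT partners were narrow: 39 cells carried neither Flrt2 nor Flrt3, 20 carried 1 and 3 carried both. Flrt2 was in 18 cells and Flrt3 in 8. Adgrl3 was together with Flrt2 in 13 cells and with Flrt3 in 4.

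Among SynCAMs, the pair Cadm1 and Cadm2 was carried by 53 cells, and Cadm1 had the highest TPM in 49 of the 61 cells with any. Cadm2 led in the other 12. Cadm3 (20 cells) and Cadm4 (14 cells) led in 0 of 61. All 4 genes were carried by 7 cells. Cadm1 ran from 5.01 to 1727 CPM (median 305) and Cadm2 from 2.75 to 1539 CPM (median 202). Cadm3 shares exon positions with Ackr1 on the same strand.

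Contactin 1 was much broader than either contactin-associated gene of the set. Whether these proteins pair with it in these cells was not tested. Cntn1 was carried by 54 cells, Cntnap2 by 25 and Cntnap4 by 24. Nearly all cells with a contactin-associated gene had Cntn1 as well: 24 of 25 for Cntnap2 and 23 of 24 for Cntnap4. In contrast, 30 cells had Cntn1 without Cntnap2, and 14 cells had both contactin-associated genes.

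Classical cadherins bind like to like. Cdh2 (N-cadherin) was in 34 cells, Cdh11 in 18, Cdh8 in 10 and Cdh9 in 6. None of the 4 was carried by 18 cells, 1 by 23, 2 by 18 and 3 by 3. Cdh2 went with Cdh11 in 14. For the immunoglobulin-type pair, all 48 cells with L1cam carried Ncam1, as every cell did, and Ncam1 had the higher TPM in 55 of 62. L1cam shares exon positions with Arhgap4 on the same strand.

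**Figure D3:**
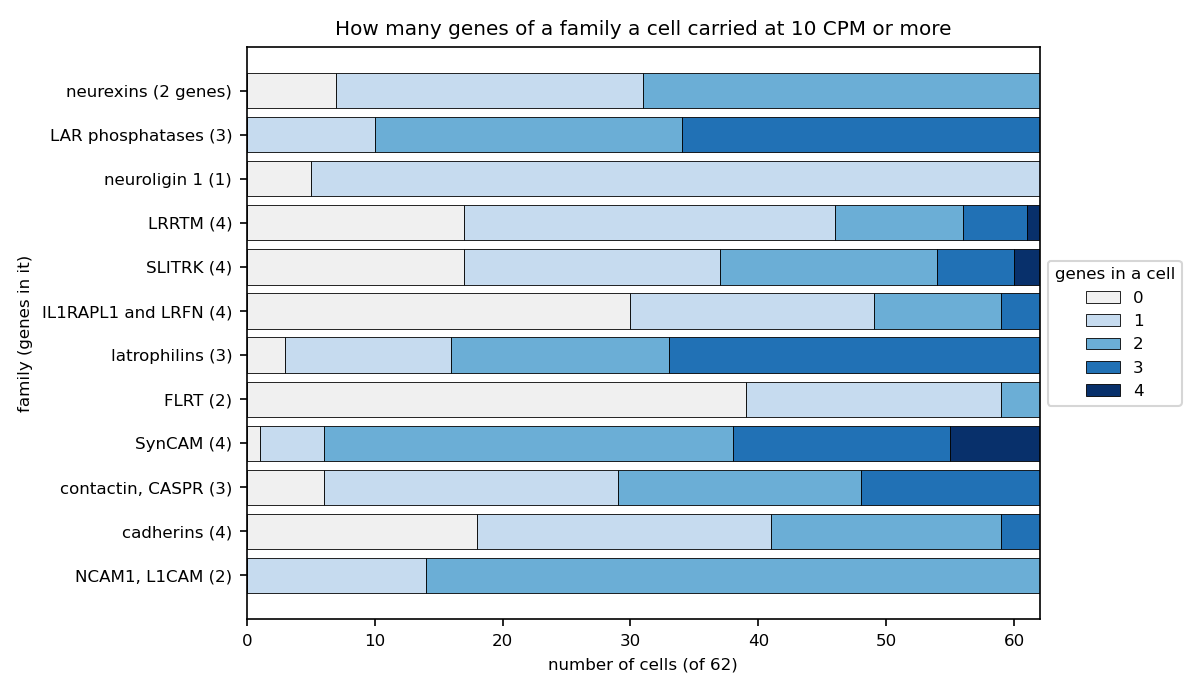
Number of cells (of 62, horizontal axis) that carried 0 to 4 genes of each of the 12 families at 10 CPM or more. LAR-type phosphatases and the NCAM1 and L1CAM pair are never at 0, whereas 39 cells carried no FLRT gene.

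Which gene of a family led in a cell was tallied by group, over cells with any gene of that family. Cadm1 led its family in 9 of 9 female and 13 of 18 male cells of WT, and in 17 of 19 and 10 of 15 cells of Mut. Ptprs led the phosphatases in 6 of 9 and 11 of 19 cells of WT and in 11 of 19 and 10 of 15 of Mut, females first. Nrxn3 led the neurexin pair in 3 of 8 and 7 of 16 WT cells and in 10 of 16 and 9 of 15 Mut cells. Thus the same genes led most often in each group for SynCAMs and phosphatases, whereas for neurexins Nrxn2 led more WT cells and Nrxn3 more Mut cells by TPM. By CPM Nrxn3 leads over all cells, as given above, and with cells that may share an animal these tallies carry no test. The contactin family varied more: Cntn1 led in 5 of 8 and 14 of 17 WT cells, females first, and in 17 of 18 cells of Mut females but 5 of 13 of Mut males, where Cntnap2 led in 6. Adgrl1 led the latrophilins in 5 of 8 and 6 of 19 WT cells and in 8 of 18 and 10 of 14 Mut cells, females first. Adgrl1 sums show the same lack of a common direction, with 353 CPM in WT females against 142 in Mut females, and 161 in WT males against 218 in Mut males.

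Shares of cells that carried a gene were close between genotypes for most of the set. Ncam1 was carried by 28 of 28 WT and 34 of 34 Mut cells, Slitrk5 by 12 and 14, Ptprf by 13 and 16, and Cdh2 by 16 and 18. The widest gaps, picked out after the values were seen, were for genes of few cells. Of 28 WT and 34 Mut cells, Lrfn5 was carried by 10 and 5, Lrfn1 by 10 and 7, Cadm4 by 4 and 10, Lrrtm3 by 1 and 6 and Flrt2 by 6 and 12. For Cadm4 the sums were 4.04 and 4.36 CPM in WT females and males and 10.7 and 8.93 CPM in Mut, so its summed level was low in all 4 groups.

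For the narrow genes a group's sum was often the sum of 1 cell. WT male 12 held 99.5% and Mut female 1 held 98.0% of their groups' Cdh9 counts. WT male 7 held 95.3% and Mut male 16 held 84.4% for Flrt3. WT female 8 held 90.8% of its group's Cdh11 and 77.6% of its Cdh2. Over the group sums of the 6 genes in 10 cells or fewer, the leading cell held 39.8% to 100% of the counts (median 66.8%). Over those of the 10 genes in 48 cells or more it held 10.2% to 66.0% (median 20.2%). The low end was Ncam1 in the 19 WT male cells and the high end was L1cam in WT female 1, so single cells weighed on some broad genes too.

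The study compared genotypes. None of the 36 genes differed between Mut and WT in the edgeR quasi-likelihood test on the 4 sums, with sex as a term, at a Benjamini-Hochberg adjusted p under 0.05. Among all 16435 genes 0.00% passed. At an unadjusted p under 0.05 the count was 0 of 36, against 3.50% of all genes (575). DESeq2 on the same sums called 0 of 36, against 4.05% of all genes (666). The design is small, with 2 sums per genotype and 1 residual degree of freedom, and the spread was wide (biological coefficient of variation 0.958). It therefore does not show that the genotypes are alike.

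Directions did not line up between the sexes either. In each sex the value is the log2 ratio of the Mut sum over the WT sum (CPM + 1), with no test because each group is 1 sum. The same sign in both sexes was seen for 16 of 36 genes, against 50.2% of all genes, with 8 higher in Mut (all genes 25.1%) and 8 lower (all genes 25.1%). Of the other 20, 12 were lower in Mut females and higher in Mut males, and 8 the reverse. The median ratio over the 36 was -0.28 in females and 0.15 in males (all genes 0.02 and -0.02), and the median fitted log2 fold change was -0.09 (all genes 0.00). Leaving out 1 cell turned the sign in at least 1 sex for 16 genes. Keeping the same sign in both sexes without each cell in turn held for 9 of 36, against 15.8% of all genes.

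**Figure D4:**
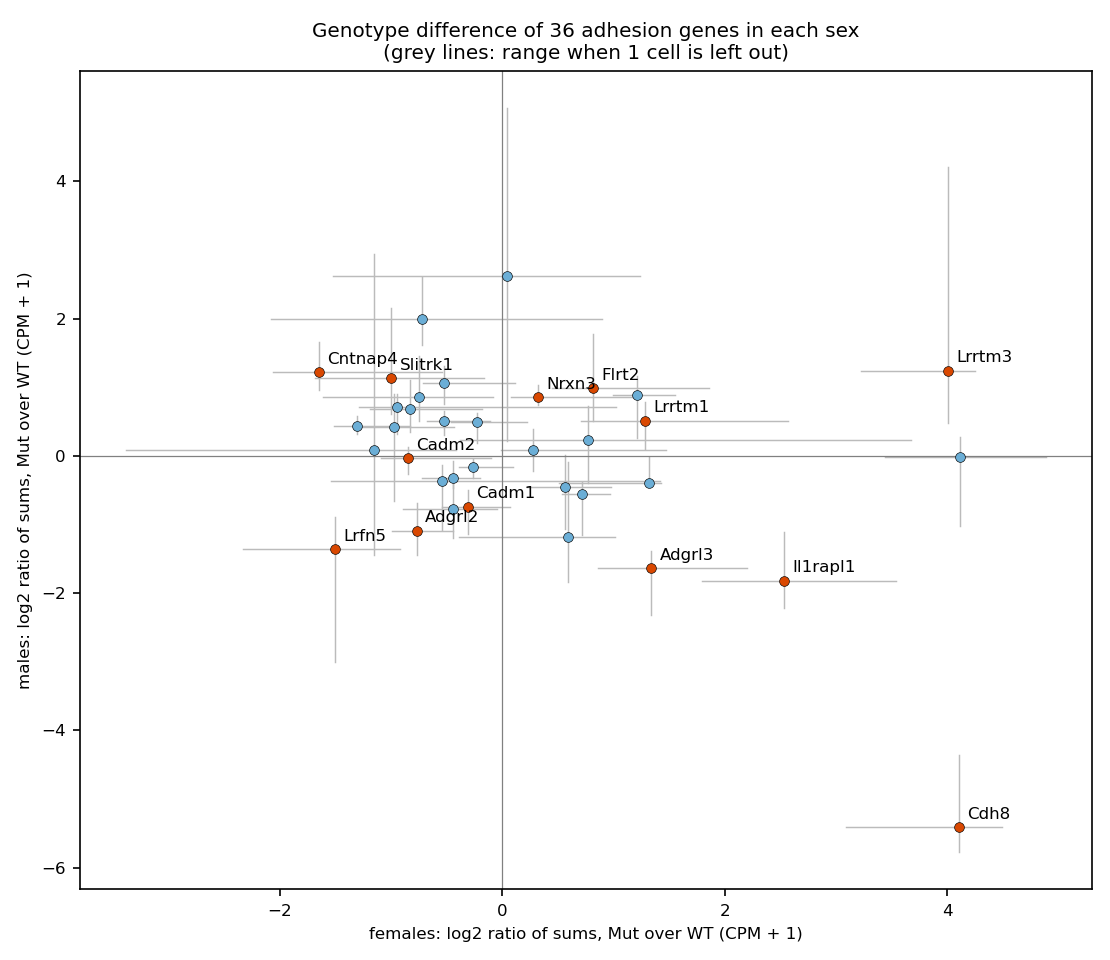
Log2 ratio of Mut over WT sums (CPM + 1) of the 36 genes in females (horizontal) and males (vertical); grey lines give the range when 1 cell is left out, and orange points are named in the text. Points lie in all 4 quadrants, with Cdh8 farthest out at 4.11 and -5.41.

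The 8 genes of smallest p among those with the same sign in both sexes are described in full, and all had an edgeR adjusted p of 1. The smallest p belonged to the latrophilin Adgrl2 (chr3:148815583-148990555, GRCm38). Its CPM per cell ran from 0.433 to 423 (median 121) in WT females, from 0.647 to 648 (median 20.5) in WT males, from 0.204 to 775 (median 17.2) in Mut females and from 0.524 to 432 (median 30.4) in Mut males. The cells overlapped throughout, and a similar share carried it, 17 of 28 in WT and 20 of 34 in Mut. In the sums it stood at 229 and 143 CPM in WT females and males and at 134 and 66.4 CPM in Mut. In the edgeR fit Adgrl2 had a log2 fold change of -0.94 with an SE of 0.45 and an unadjusted p of 0.0967. Within females the ratio was -0.77 and within males -1.09, and no left-out cell turned either sign. Without WT female 8 the female ratio was -0.44 and without WT male 19 the male ratio was -0.69. With 1 of the 4 sums left out the fold change of Adgrl2 ranged from -1.46 to -0.47.

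The SALM gene Lrfn5 (chr12:61523150-61858342) had the most negative fold change of the 8, at -1.50 (SE 0.94). It was carried by 3 of 9 WT female and 7 of 19 WT male cells, against 2 of 19 and 3 of 15 in Mut. Its highest values were 130.0, 354, 198 and 310.0 CPM in WT females and males and then Mut females and males, and all 4 medians lay between 0.413 and 1.55 CPM. A few cells thus made up the sums, and Mut male 5 held 73.8% of its group's counts. The ratio was -1.50 in females and -1.36 in males. It was -2.33 in females without Mut female 22 and -3.00 in males without Mut male 5. With single cells left out the fitted fold change of Lrfn5 ranged from -2.41 to -1.19.

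Both SynCAMs with broad expression had negative fold changes, and neither passed the test. Cadm1 (chr9:47530173-47857637) ran from 246 to 1547 CPM in WT females (median 602) and from 7.22 to 1712 in WT males (median 238). In Mut it ran from 5.01 to 1727 in females (median 495) and from 6.03 to 1077 in males (median 126). The groups overlapped, and the log2 fold change was -0.53 (SE 0.33). In females the ratio of -0.31 became 0.07 without WT female 7, a cell with 7207 CPM of astrocyte markers. In males the ratio of -0.74 became -1.14 without Mut male 17. Without the 12 cells high in glial markers the fold change of Cadm1 was -0.27, and with 1 sum left out it ranged from -1.06 to -0.03. Cadm2 (chr16:66655421-67620908) had a fold change of -0.44 (SE 0.40), with -0.85 in females and -0.03 in males, where leaving out any of 15 cells turned the sign. Without WT female 7, which held 45.1% of the WT female counts of Cadm2, the female ratio was -0.10. Without the cells high in glial markers the Cadm2 fold change was -0.07. In that set the ratios were 0.21 in females and -0.34 in males for Cadm2, and 0.18 and -0.71 for Cadm1. Neither gene then kept the same sign in both sexes.

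Nrxn3 (chr12:88722876-90334935) was the higher gene with the most cells behind it. Its median was 46.8 CPM in WT females and 34.4 in WT males, against 177 in Mut females and 235 in Mut males. The ranges were 0.401 to 550.0, 1.30 to 378, 1.01 to 616 and 3.67 to 564 CPM in that order, so they overlapped nearly in full. It was carried by 8 of 9, 13 of 19, 14 of 19 and 13 of 15 cells. For Nrxn3 the fold change was 0.59 (SE 0.43), at 0.32 in females and 0.85 in males. Without WT female 1, which held 56.9% of its group's counts, the female ratio was 1.17.

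LRRTM genes gave 2 of the higher ones. Lrrtm1 (chr6:77242689-77257791) had sums of 20.6 and 96.1 CPM in WT females and males and of 51.6 and 137 CPM in Mut. The fold change was 0.92 (SE 0.61), with 1.28 in females and 0.51 in males. The cells carrying it numbered 2 of 9, 10 of 19, 9 of 19 and 9 of 15. With the WT female sum left out its fold change turned to -0.02, and without the Mut male sum to -0.17. Without WT female 2 the female ratio was 2.57, and without Mut male 7 the male ratio was 0.10. Without the 12 cells high in glial markers the fold change of Lrrtm1 was 0.44. Lrrtm3 (chr10:63928472-64090277) was carried by 1 WT and 6 Mut cells. Its highest value was 2.37 CPM among WT females, 131 among WT males, 156 among Mut females and 139 among Mut males. WT male 19 alone held 97.1% of the WT male counts. The fold change of 3.52 (SE 2.07) ranged from 3.11 to 6.05 with single cells left out. Whole sums moved it further: it was 1.29 without WT females, 5.84 without WT males, 2.28 without Mut females and 2.18 without Mut males. With no term for sex it was 2.22. DESeq2 gave Lrrtm3 an adjusted p of 0.0603, where edgeR gave 1. The male ratio of 1.24 became 4.21 without WT male 19. Flrt2 (chr12:95692226-95785215), the latrophilin partner, was carried by 6 of 28 WT and 12 of 34 Mut cells, with a fold change of 0.93 (SE 0.78). Its ratio was 0.82 in females and 0.99 in males. It was 1.86 in females without WT female 5, which held 58.1% of its group's counts, and 1.78 in males without WT male 1. Without the 12 cells high in glial markers the fold change of Flrt2 was 1.46. The other 4 of the 8 genes kept their sign without those 12 cells, at -1.15 for Adgrl2, -1.34 for Lrfn5, 0.57 for Nrxn3 and 3.68 for Lrrtm3.

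**Figure D5:**
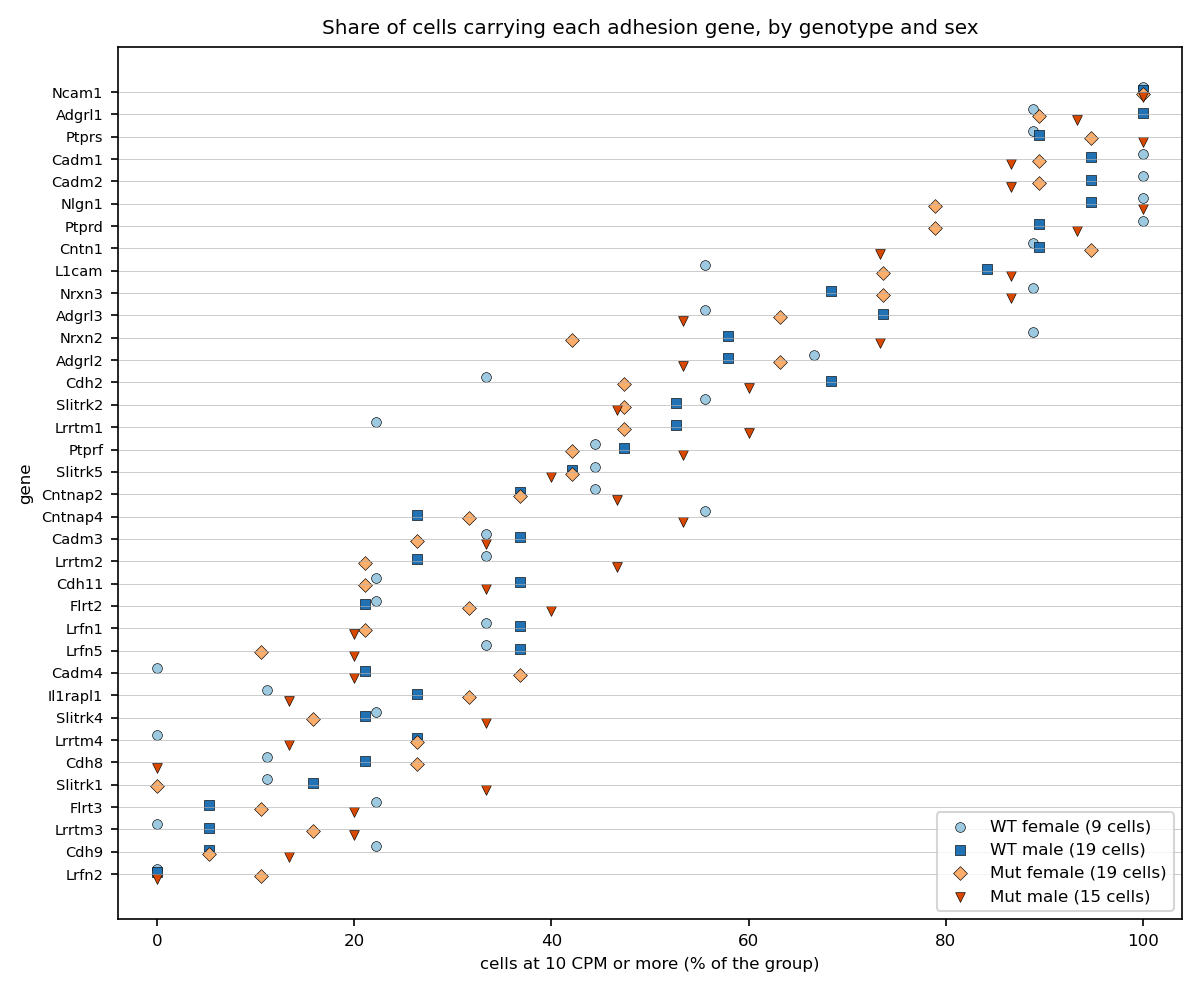
Percent of cells at 10 CPM or more for each of the 36 genes in the 4 groups of 9 to 19 cells. Ncam1 is at 100% in every group, and gaps between groups rest on few cells, as for Lrrtm1 with 2 of 9 WT female cells.

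For sex, adjusted for genotype in the same fit, 0 of 36 genes passed the adjusted threshold (all genes 0.00%). At an unadjusted p under 0.05 there was 1 of 36, against 3.88% of all genes (637). DESeq2 called 0 of 36, against 4.33% of all genes (711). The gene was Lrrtm1, higher in males in both genotypes by the sums given above, with a log2 fold change of 1.82 male over female (SE 0.62, unadjusted p = 0.0361 and adjusted p = 1, edgeR). WT female 2 held 68.2% of the Lrrtm1 counts of its group.

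A wider list of 62 other adhesion genes held further contactins and cadherins, neuroligins, teneurins, calsyntenins, cerebellins, ephrins and similar families. Of its 61 tested genes, 0 passed the adjusted threshold in edgeR and 3 had an unadjusted p under 0.05 (all genes 3.50%), all higher in Mut. DESeq2 called 3 (all genes 4.05%). The same sign in both sexes was seen for 33 genes (all genes 50.2%), with 21 higher (all genes 25.1%) and 12 lower (all genes 25.1%). The median fold change was 0.27 (all genes 0.00). The smallest p in each direction belonged to cadherin and contactin genes and to an inhibitor of neuroligins. Cdh18 was higher in Mut (log2 fold change 5.80, SE 2.09) but carried by 3 cells, all Mut. Cdh13 was carried by 20 cells and stood at 52.4 and 44.3 CPM in the WT sums against 221 and 91.9 in Mut (1.56, SE 0.57). Cntn6 was lower at -1.70 (SE 0.78), and Mdga1, which blocks neuroligin from binding neurexin, at -3.20 (SE 1.75). Mdga1 was carried by 12 of 28 WT cells against 5 of 34 in Mut, and its ratio was -0.85 in females and -4.85 in males. Neither Cntn6 nor Mdga1 reached an unadjusted p under 0.05 in edgeR (0.0841 and 0.132). Of these 62 genes 3 were carried by 48 cells or more, including Chl1 by 58 and Clstn1 by 55.

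The labels mark 5 further WT cells as contaminated, 1 female and 4 male, and they were kept out of all values above. The 4 male cells held 11949 to 14090 CPM of microglial markers and the female cell 3609 CPM. Summed over the 36 genes, the male cells had 1060 to 1900 CPM, against 1340 to 6353 CPM in the 19 unmarked WT males (median 4326). The number of genes carried was less different, 13 to 21 in the marked males and 20 in the marked female. Genes of any kind at 10 CPM were more numerous, 5083 to 7495 in the marked males and 6785 in the marked female. The median was 4117 in unmarked WT males and 4462 in unmarked WT females. Ncam1 was at 113 to 721 CPM in the 5 cells (unmarked WT median 786), Cntn1 at 44.6 to 193 (226) and Ptprd at 4.34 to 172 (215). Adgrl2 and Cdh2 were carried by all 5 marked cells, against 17 and 16 of the 28 unmarked WT cells.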

How the data were processed

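Per the submitters' processing notes, the authors used kallisto and GRCm38 for the Patch-seq reads of Nextera XT libraries; versions are not given in the sources used here. Expected counts, 1 row a gene symbol, were deposited before and after a quality filter whose criterion is not given in the sources used here. The deposited normalized table holds TPM. Columns of other samples (44, 52 and 44 in the 3 tables) were not used here. CPM per cell is counts over the column total.

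The authors kept 67 of 76 labelled cells, of which 62 carry no contamination mark. Expected counts were summed per genotype and sex and rounded. edgeR 4.0.16 (filterByExpr by genotype with minimum count 10, TMM, quasi-likelihood F-test, terms for sex and genotype, 1 residual degree of freedom) was fitted to 16435 genes, with Benjamini-Hochberg adjustment over all of them and a threshold of 0.05. p-values measure the spread between 4 sums only. Within a sex, log2 ratios used TMM-scaled CPM with a pseudocount of 1. Fold changes are Mut over WT. The scripts were tested on simulated data. Recovery of changed genes was required there only at a spread far smaller than that of these data. That check therefore does not tell what the fit can find here. Alternatives were DESeq2 1.42.0, other scalings, filters, cell sets and thresholds, and each cell or sum left out. Reads lack molecular identifiers and so are not independent molecules; limits from counts (3 counts for a count of 0) cover counting error only.

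No 2 cells had identical counts. Fitted fold changes are given for up to 8 genes of smallest p with the same sign in both sexes, and for 4 of the wider list (2 in each direction). The genes and lists were chosen with earlier results of these data known. Coordinates are from GENCODE M21 (GRCm38) and upstream sequences from RefSeq (GRCm38.p6).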

Additional observations from a re-analysis of the deposited data

Results flagged for a closer look

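In WT females, the group of 9 cells, 1 cell stood far from the rest in 4 of the 8 genes described in full. The usual rate of 1 flagged group in 20 assumes evenly spread values. CPM of single cells is mostly low with a few high values, so that rate need not hold here. The 9 WT female cells were checked for each of these genes among 10 groups in all, and the flags fell on WT female 7 and WT female 2 only. Cadm1 reached 1547 CPM and Cadm2 1539 CPM in WT female 7, the cell with 5 adhesion genes and 7207 CPM of astrocyte markers. Lrrtm1 reached 125 CPM in WT female 2, with 51.0 CPM in WT female 6 as the only other cell of the 9 to carry it. Lrrtm3 reached 2.37 CPM in WT female 2, which is under the limit of 10 CPM and is not read as expression.

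For 5 genes the sexes went opposite ways by at least 1 on the log2 scale and kept both signs without each cell in turn, against 5.49% of all tested genes (902). That difference was not tested, since 4 sums leave no replicate for an interaction. Cdh8 had a log2 ratio of 4.11 in females and -5.41 in males. Its sums were 2.85 CPM in WT females and 65.7 in Mut females, 73.1 in WT males and 0.743 in Mut males. WT male 16 (4767 CPM of astrocyte markers) held 55.1% of its group's Cdh8 counts, and Mut female 20 (7815 CPM of microglial markers) held 54.0%. Without the 12 cells high in glial markers the Cdh8 ratios were 3.44 and -4.49, from sums of 3.08 and 43.4 CPM in females and 39.1 and 0.786 CPM in males, WT first. Il1rapl1 stood at 2.53 and -1.82, and the latrophilin Adgrl3 at 1.34 and -1.64. The reverse was seen for Cntnap4, at -1.65 and 1.22, where WT female 9 held 59.9% of its group's counts and its omission left -0.54, and for Slitrk1, at -1.0 and 1.13, where the omission of WT female 1 left -0.16 and that of WT male 12 gave 2.15. The omission of WT male 8 left -1.11 for Il1rapl1 in males, and that of WT female 1 gave 2.20 for Adgrl3 in females. Without the 12 cells high in glial markers, females first, Il1rapl1 stood at 2.91 and -1.93 and Adgrl3 at 0.94 and -1.55. Cntnap4 then stood at -1.52 and 0.78 and Slitrk1 at -1.07 and 0.91. Signs were kept, but Adgrl3, Cntnap4 and Slitrk1 each fell under the limit of 1 in 1 sex.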

How the results depend on the processing

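Over the settings that kept all 4 sums, the number of the 36 genes past the adjusted threshold was 0 for genotype and 0 for sex. In those run with edgeR no gene of any kind passed, so the 0 was bound to follow there. DESeq2 called 666 genes for genotype and 711 for sex, with 0 of the 36 in either. At an unadjusted p under 0.05 DESeq2 had 2 of the 36 for genotype and 1 for sex. With single cells left out, edgeR had 0 to 1 for genotype and 0 to 3 for sex. Shares of all genes at that limit are given above for the main fit only. With single cells left out (62 settings) the counts past the threshold ranged from 0 to 0, and the number with the same sign in both sexes ranged from 14 to 18. With 1 of the 4 sums left out, the fold change of Lrrtm1 ranged from -0.17 (no Mut males) to 2.24 (no WT males) and was -0.02 with no WT females. Leaving out a sum also moved the median of all genes, by 0.14 and 0.38 for the sums of WT females and males and by -0.26 and -0.23 for those of Mut. The median number of genes per cell was 24 at a limit of 1 CPM, and the median number of families was 8 at 50 CPM, which follows from the limits. Limits on astrocyte and microglial markers, the count without Slitrk2 and Nlgn1, and families at 10 TPM were chosen after seeing the data. No paired analysis was possible because the labels give cells no replicate number, animal or pairing, and the numbers used here only name cells. Among the 62 cells depth did not go with the number of genes carried, but values under 10 CPM were not read as expression. The 4 sums limit the tests: each sum of cells may hold few animals, and genes carried by few cells rest on them.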

Other observations

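The 9 cells that the authors did not keep carried 7 to 20 of the 36 adhesion genes, with a median of 13, against 17 in the 62 cells described. All but Mut female 12 had count totals of 899625 to 2633230, under the lowest of the 62 cells at 2946456. Mut female 12 had 6253603 counts but 1427 genes of any kind at 10 CPM, against 1499 or more in the 62 cells. Their summed level over the 36 genes was 1442 to 5035 CPM (median 2926, against 4361). Their olfactory receptor sum was 115 to 4120 CPM (median 2670, against 751).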
